A study of Mus musculus with 6 samples.

Results

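Skeletal muscle transcripts were read out in 6 mouse libraries made from inguinal white fat, a depot under the skin of the groin. The genes were the 37 of a list of contractile, calcium-handling and energy-supply genes of skeletal muscle, matched by symbol. Rows were found for 33 of them among the 14861 genes of the table, and all 33 were tested among 12993 genes. The 4 others, Tnni1, Myh7, Myl2 and Myl3, which encode slow-fibre troponin and myosin subunits, were not analysed here, so Tnnt1 was the only one of the slow genes Myh7, Tnnt1 and Myl2 that could be set against the fast genes Myh4, Myh1 and Tnnt3. AdIGF1RKO mice carried a floxed Igf1r gene, the insulin-like growth factor 1 receptor, and Cre recombinase under the adiponectin (Adipoq) promoter, which is active in adipocytes. Flox mice were littermates with the floxed gene and were the controls. For 24 weeks all mice had normal chow (10% of kcal as fat), and they were killed under Avertin after a night without food. The Cre driver acts in adipocytes, so muscle fibres in both groups keep the floxed gene by design. Each group had 3 libraries, and ages were not given in the sources used here.

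A muscle fibre contracts when calcium released from the sarcoplasmic reticulum binds troponin on the actin filament and lets myosin pull on it. Fibres are typed by their myosin heavy chain: Myh7 in slow fibres, Myh2 in fast oxidative type 2A, Myh1 in type 2X and Myh4 in the fastest, most glycolytic type 2B fibres. Troponins, myosin light chains and myosin-binding proteins also have fast and slow versions, and oxidative fibres are rich in myoglobin. Skeletal muscle fibres are not a cell type of white fat itself.

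Between 60617147 and 70695527 whole reads per library were recovered from the deposited values, and levels below are scaled CPM: counts per 1000000 reads after median-ratio scaling, with size factors set relative to the geometric mean of the library totals. A single read was worth between 0.013 and 0.021 scaled CPM. Igf1r, the targeted gene, had 6.11, 5.27 and 4.85 scaled CPM in the AdIGF1RKO libraries, against 6.44, 6.47 and 5.86 in the Flox libraries. Its log2 difference of -0.18 (standard error 0.12) did not pass limma's test (adjusted p = 0.998). The tissue also holds cells without Cre, and their part in the Igf1r level was not tested. All 10 adipocyte markers on a fixed list, among them Adipoq and Fabp4, were present in every library within a range of 2.01-fold, as the labelled tissue requires. The muscle genes set the libraries apart: 2 of them, AdIGF1RKO 3 and Flox 3, held most of the muscle reads of their groups, and results that rest on these are given with and without them.

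The 3 fast myosin heavy chain genes whose levels are followed most closely below are neighbours on mouse chromosome 11. Their upstream sequences are shown beside that of the slow troponin T gene Tnnt1. Neither Tnnt1 nor Myh1 and Myh2 ranked the libraries as Myh4 did. Each line gives the 250 bases before the annotated start from RefSeq (GRCm38.p6), 5′ to 3′ on the gene's strand. Capitals mark every match to an E-box (CANNTG, bound by MyoD-type factors), an MCAT element (CATTCC), the MEF2 consensus, the CArG box consensus or TATAAA, searched on both strands. TATAAA matches may lie within a MEF2 match. The positions are chr11:67237562-67237811 (+) for Myh4, chr11:67199852-67200101 (+) for Myh1, chr11:67170777-67171026 (+) for Myh2 and chr7:4515976-4516225 (-) for Tnnt1.
Myh4: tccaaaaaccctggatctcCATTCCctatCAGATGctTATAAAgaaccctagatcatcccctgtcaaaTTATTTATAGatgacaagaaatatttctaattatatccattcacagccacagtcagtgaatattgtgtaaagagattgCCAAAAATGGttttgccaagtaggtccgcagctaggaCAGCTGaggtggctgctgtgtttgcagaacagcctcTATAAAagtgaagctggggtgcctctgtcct
Myh1: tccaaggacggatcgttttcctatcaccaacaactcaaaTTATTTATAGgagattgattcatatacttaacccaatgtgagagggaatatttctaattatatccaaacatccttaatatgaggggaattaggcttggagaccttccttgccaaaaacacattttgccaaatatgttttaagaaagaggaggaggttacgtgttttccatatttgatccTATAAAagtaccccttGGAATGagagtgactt
Myh2: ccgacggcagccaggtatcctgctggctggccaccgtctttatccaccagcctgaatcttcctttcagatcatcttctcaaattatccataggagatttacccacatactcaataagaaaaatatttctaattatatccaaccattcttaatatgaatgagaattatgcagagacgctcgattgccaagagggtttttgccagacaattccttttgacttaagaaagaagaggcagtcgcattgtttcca
Tnnt1: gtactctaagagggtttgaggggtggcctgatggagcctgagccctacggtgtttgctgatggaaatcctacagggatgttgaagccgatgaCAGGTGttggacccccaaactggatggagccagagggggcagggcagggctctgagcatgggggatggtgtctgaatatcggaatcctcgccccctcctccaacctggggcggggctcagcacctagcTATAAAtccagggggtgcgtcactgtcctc
The Myh4 window held 2 E-boxes, 1 MCAT element, 1 MEF2 match, 1 CArG box and 3 TATAAA matches. In Myh1 there were 1 MCAT element, 1 MEF2 match with the same letters as in Myh4 (TTATTTATAG) and 2 TATAAA matches. The Myh2 window held none of these letters, and Tnnt1 had 1 E-box and 1 TATAAA match. Windows were found for 25 of the 33 genes, 29 windows in all. Of these, 79.3% held an E-box, against 66.2% of all 32851 windows of the same length. An MCAT element stood in 27.6% of the muscle gene windows and 12.6% of all windows, a MEF2 match in 17.2% and 2.92%, a CArG box in 13.8% and 1.47%, and TATAAA in 17.2% and 12.4%. These matches describe the letters and do not show that a factor binds there.

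Muscle reads varied widely between libraries of 1 group. The 33 genes took 0.0630%, 0.327% and 5.36% of the reads in AdIGF1RKO 1, 2 and 3, against 1.05%, 0.126% and 14.7% in Flox 1, 2 and 3. Means were 1.92% ± 2.98 in AdIGF1RKO and 5.29% ± 8.15 in Flox (SD, n = 3 each), a difference of -3.37 percentage points, which was smaller than the SD of Flox and slightly larger than that of AdIGF1RKO. It was 1.33 without Flox 3, so its sign turned, and -0.39 without both libraries numbered 3. Within AdIGF1RKO the highest library exceeded the lowest 85.0-fold, and within Flox 117-fold. AdIGF1RKO 3 held 92.9% of the muscle reads of its group and Flox 3 held 91.9% of those of its own. In a bulk sample a larger number of muscle fibres and more RNA per fibre cannot be told apart.

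**Figure D1:**
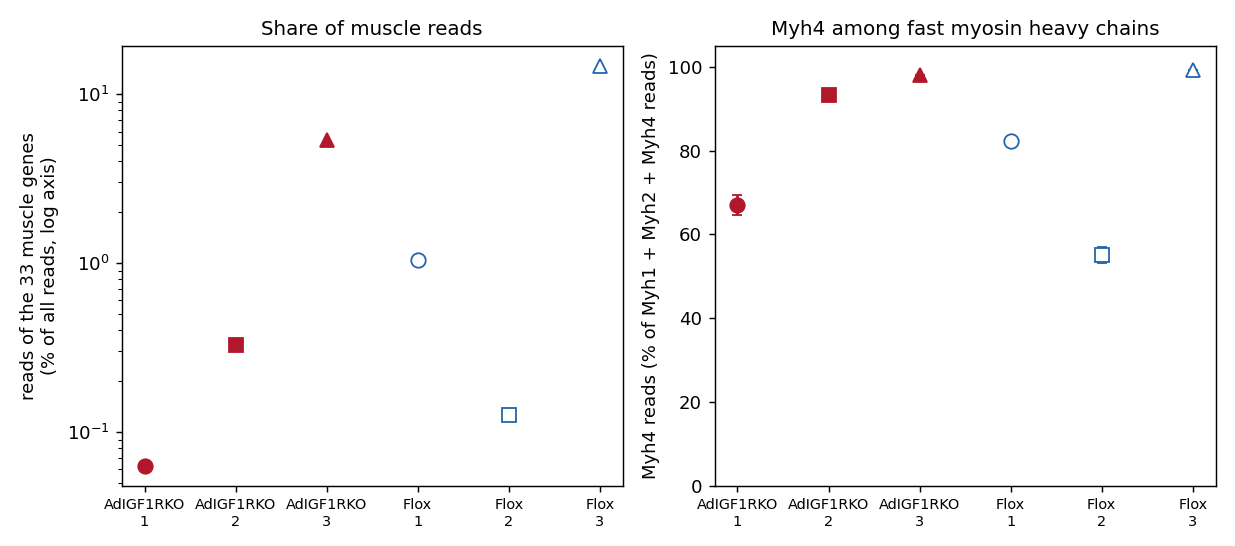
Left, reads of the 33 muscle genes as a percentage of all reads of a library, on a log axis. Right, Myh4 reads as a percentage of the reads of Myh1, Myh2 and Myh4 with Wilson 95% intervals, most of them smaller than the symbol. Filled red symbols are the AdIGF1RKO libraries and open blue symbols the Flox libraries, and symbol shape gives the replicate number. Both libraries numbered 3 have the highest muscle share and the highest Myh4 share of their group.

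Of the 33 genes, 26 ranked the libraries identically: Flox 3 was highest, then AdIGF1RKO 3, Flox 1, AdIGF1RKO 2, Flox 2 and AdIGF1RKO 1. Among all tested genes 2.38% had that order. The 7 others were Myh1, Myh2, Mybpc1, Mb, Actn2, Tnnt1 and Tnnc1. Tnnt1, Tnnc1 and Mybpc1 are known from slow fibres, Mb and Myh2 from oxidative ones, Myh1 from type 2X fibres and Actn2 from all fibres. Every one of the 33 genes had more than 10 times as much in its highest as in its lowest library, which held for 2.79% of all tested genes.

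**Figure D2:**
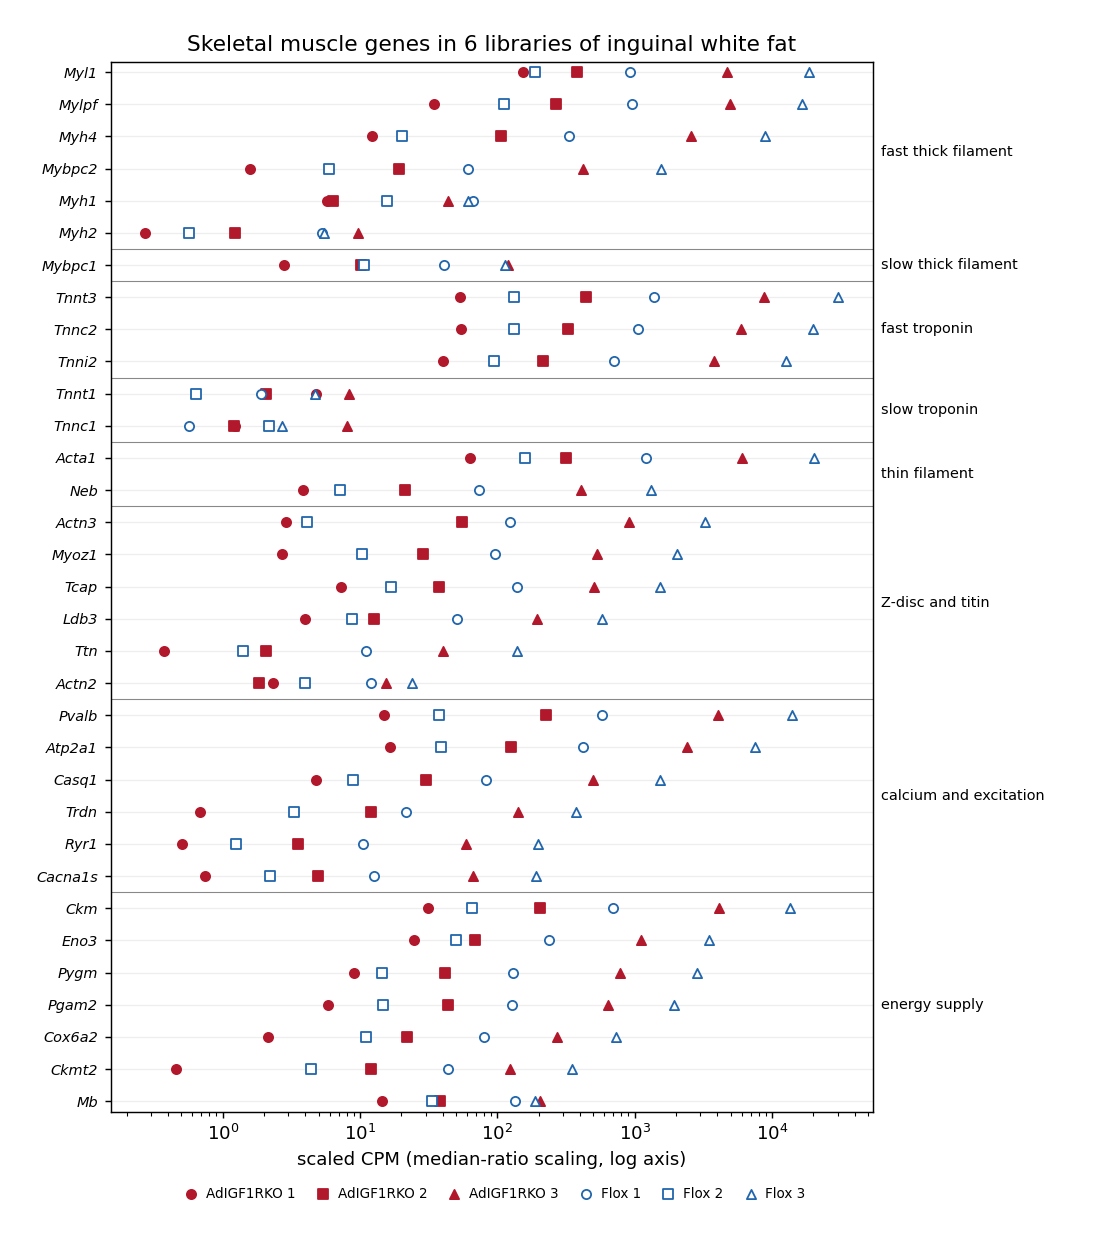
Scaled CPM of the 33 muscle genes (rows, grouped by role) in each library, on a log axis. Filled red symbols are AdIGF1RKO, open blue symbols Flox, and shape gives the replicate number. For 26 genes the symbols stand in 1 common order, and for Myh1, Myh2, Mybpc1, Mb, Actn2, Tnnt1 and Tnnc1 they do not.

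Fast thick filament genes spanned from 11.6-fold for Myh1, the narrowest range of the 33 genes, to 987-fold for Mybpc2. Myh4, the type 2B heavy chain, had 12.3, 106 and 2565 scaled CPM in the AdIGF1RKO libraries 1 to 3, against 332, 20.1 and 8839 in the Flox libraries. The groups overlapped, and the 2 libraries numbered 3 stood above all the rest. Myh1, the type 2X heavy chain, had 5.76, 6.35 and 44.0 scaled CPM in AdIGF1RKO, against 66.5, 15.8 and 61.2 in Flox. For Myh1 the highest library was Flox 1, and AdIGF1RKO 3 lay between the Flox values. Myh2, the type 2A heavy chain, had only 0.272, 1.23 and 9.66 scaled CPM in AdIGF1RKO, resting on 21, 87 and 613 reads, against 5.27, 0.570 and 5.49 in Flox, resting on 373, 40 and 265 reads. Mylpf, the fast regulatory light chain, had 34.3, 267 and 4912 scaled CPM in AdIGF1RKO, against 964, 113 and 16556 in Flox. Myl1, the fast essential light chain, kept a higher floor, with 153, 382 and 4698 in AdIGF1RKO against 931, 189 and 18556 in Flox. It took 26.6% of all muscle gene reads in AdIGF1RKO 1, 15.6% in Flox 2 and 8.64% to 12.4% in the other 4 libraries. Mybpc2, fast myosin-binding protein C, spanned 1.58 to 423 scaled CPM in AdIGF1RKO and 5.90 to 1561 in Flox.

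The makeup of the fast heavy chains differed between libraries of 1 group by more than their counting error. Myh4 gave 67.1% of the reads of Myh1, Myh2 and Myh4 in AdIGF1RKO 1 (Wilson 95% interval 64.6% to 69.5%), 93.3% in AdIGF1RKO 2 (92.8% to 93.9%) and 98.0% in AdIGF1RKO 3 (97.9% to 98.0%). It gave 82.2% in Flox 1 (81.8% to 82.7%), 55.1% in Flox 2 (53.2% to 57.0%) and 99.3% in Flox 3 (99.2% to 99.3%). The intervals cover counting error only. Group means were 86.1% ± 16.6 in AdIGF1RKO and 78.9% ± 22.3 in Flox (SD, n = 3 each), a difference of 7.27 percentage points that lay within the SD of either group. It was -4.6 without Flox 2, with its sign turned, and 17.5 without Flox 3. It was 16.8 without AdIGF1RKO 1, 3.67 without AdIGF1RKO 2 and 1.36 without AdIGF1RKO 3, and leaving out libraries for this share was chosen after seeing the data. Myh1 supplied most of the remainder, from 1.68% to 31.4% in AdIGF1RKO and from 0.687% to 43.3% in Flox. The order was not that of the muscle share throughout, since Flox 1 had more muscle reads than AdIGF1RKO 2 but a lower Myh4 share. These 3 genes are close paralogs of similar transcript length (6016 to 6083 bases in GENCODE M21), and how reads shared between them were divided is not given in the sources used here. Per kilobase of transcript, Myh4 had a level of 2.05, 17.6 and 426 scaled CPM in AdIGF1RKO and 55.2, 3.35 and 1469 in Flox, while Myh1 had a level of 0.947, 1.04 and 7.24 in AdIGF1RKO and 10.9, 2.60 and 10.1 in Flox.

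The slow troponin genes had few reads in every library. Tnnt1, slow troponin T, had 4.75, 2.08 and 8.37 scaled CPM in AdIGF1RKO, against 1.91, 0.641 and 4.66 in Flox. Tnnc1, the troponin C of slow and cardiac muscle, had 1.23, 1.20 and 8.004 scaled CPM in AdIGF1RKO, against 0.565, 2.17 and 2.69 in Flox. Both were highest in AdIGF1RKO 3, and in Flox 3, which had the most muscle RNA by far, they stood no higher than a few scaled CPM. Tnnt1 rested on 147 to 531 reads in AdIGF1RKO libraries and on 45 to 225 in Flox libraries. Their fast counterparts were of another order of magnitude: Tnnt3, fast troponin T, had 53.5, 445 and 8685 scaled CPM in AdIGF1RKO, against 1375, 132 and 30402 in Flox. Per kilobase of transcript, the level of Tnnt3 was 49.6, 412 and 8049 in AdIGF1RKO and 1274, 122 and 28176 in Flox, while that of Tnnt1 stayed between 1.96 and 7.90 in AdIGF1RKO and between 0.606 and 4.40 in Flox. Mybpc1, slow myosin-binding protein C, had 2.80, 10.2 and 119 scaled CPM in AdIGF1RKO and 41.0, 10.8 and 114 in Flox. For Mybpc1 the libraries numbered 3 had nearly equal levels.

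As the fast-to-slow measure, reads of Myh4, Myh1 and Tnnt3 were summed and divided by those of Tnnt1. The log2 ratio was 3.92, 8.07 and 10.4 in the AdIGF1RKO libraries, against 9.86, 8.03 and 13.04 in the Flox libraries. AdIGF1RKO 1 stood lowest and Flox 3 highest, and the groups overlapped. Means were 7.46 ± 3.28 in AdIGF1RKO and 10.3 ± 2.53 in Flox (SD, n = 3 each), and the difference of -2.85 was close to the spread within a group. It kept its sign without each library in turn, between -4.32 and -1.08. Tnnt1 made up the whole slow side of this ratio, and its level in AdIGF1RKO 1, 4.75 scaled CPM, was close to the 4.66 of Flox 3, the library with 233 times its muscle share. Whether Tnnt1 reads in the libraries poor in muscle came from muscle fibres was not tested.

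A direct comparison with Flox 3, the richest library, shows which genes scaled together. In AdIGF1RKO 3 the median gene of the 33 stood at 0.320 of its Flox 3 level, and 26 genes lay within 1.5-fold of that median ratio. The 7 genes beyond it were all above: Tnnc1 by 9.28-fold, Tnnt1 by 5.60-fold, Myh2 by 5.49-fold, Mb by 3.43-fold, Mybpc1 by 3.25-fold, Myh1 by 2.25-fold and Actn2 by 2.03-fold. The same 7 genes lay more than 1.5-fold above the median ratio in each of the other 4 libraries too. Every ratio here has Flox 3 as its denominator, so a gene low in Flox 3 against the other muscle genes is raised in each library. The recurrence is therefore not a set of independent observations. In Flox 1 the median ratio was 0.0582, and Myh1 stood 18.7-fold, Myh2 16.5-fold, Mb 12.4-fold and Actn2 8.63-fold above it. Against the 2 libraries with the least muscle RNA the profile differed more. Median ratios were 0.00301 in AdIGF1RKO 1 and 0.00792 in Flox 2, and 14 and 13 genes lay within 1.5-fold of them. Below the median by more than 1.5-fold in both were Actn3, Myh4, Mybpc2, Pvalb, Tnnt3 and Myoz1, all known as genes of fast fibres. Other fast-fibre genes were not: in AdIGF1RKO 1 and Flox 2, Myh1 stood 31.3-fold and 32.6-fold above the median, and Myl1 2.75-fold and 1.29-fold. Tnni2 (1.07 and 0.951 of the median), Tnnc2 (0.906 and 0.845) and Mylpf (0.690 and 0.858) lay within 1.5-fold. Atp2a1 was below by more than that in Flox 2 (0.649) but not in AdIGF1RKO 1 (0.728). Actn3 stood at 0.292 of the median ratio in AdIGF1RKO 1 and at 0.159 in Flox 2. These comparisons set single libraries side by side and carry no test of the genotype.

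**Figure D3:**
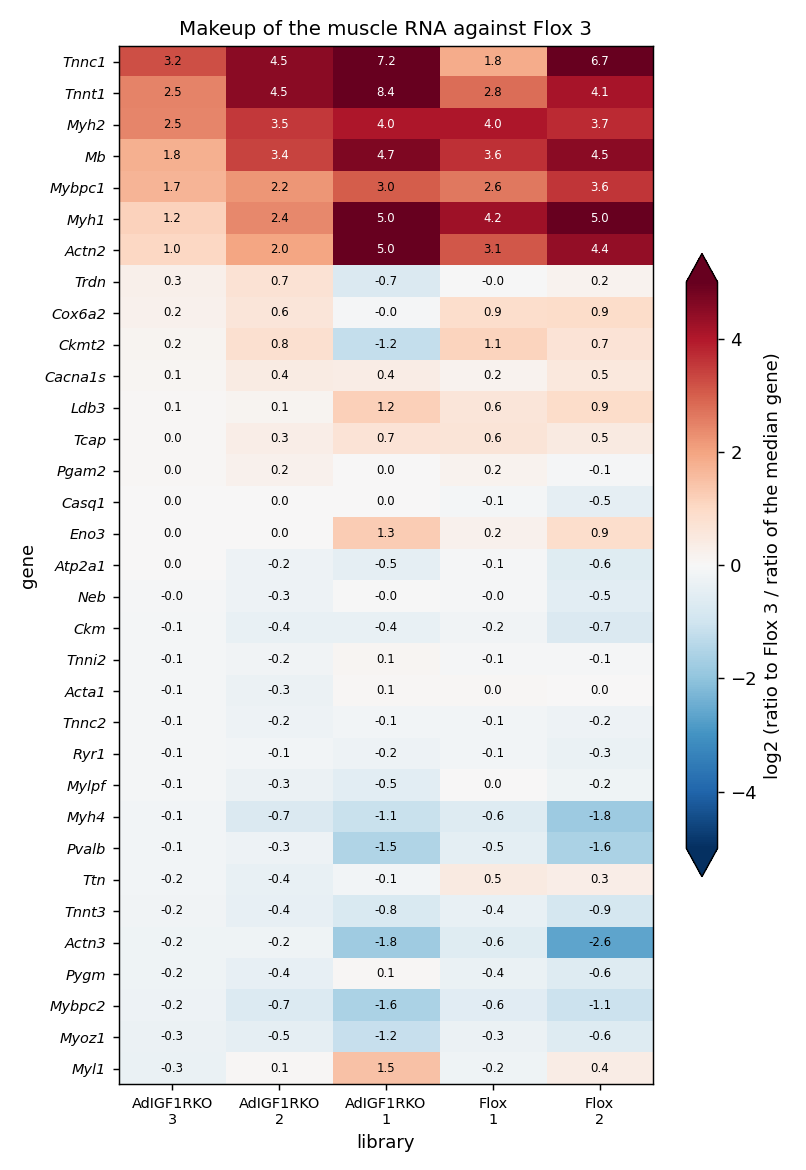
Each cell gives, for a gene (row) and a library (column), the log2 of its ratio to Flox 3 divided by the median ratio of the 33 genes in that library. Red cells are genes higher than a common dilution of the Flox 3 profile would give, blue cells lower. The top 7 rows, Tnnc1 to Actn2, are red in all 5 libraries, which share Flox 3 as denominator, and colours saturate at 5 on the log2 scale.

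Thin filament and Z-disc genes followed the common order with 1 exception. Acta1, skeletal alpha-actin, had 63.7, 317 and 6039 scaled CPM in AdIGF1RKO, against 1207, 159 and 20094 in Flox. Neb, the giant nebulin that lines the thin filament, had 3.85, 21.4 and 406 in AdIGF1RKO, against 73.9, 7.11 and 1305 in Flox. In both the libraries numbered 3 were highest and AdIGF1RKO 1 lowest, and Acta1 deviated from the median ratio to Flox 3 by less than 1.25-fold in every library. Actn3, the alpha-actinin of fast fibres, showed the widest range of the 33 genes, 1137-fold, with 2.87, 55.3 and 909 scaled CPM in AdIGF1RKO and 123, 4.12 and 3260 in Flox. Actn2, the alpha-actinin of all fibres, spanned 13.1-fold, with 2.32, 1.82 and 15.5 in AdIGF1RKO and 12.0, 4.01 and 23.8 in Flox. The other Z-disc and titin genes were Myoz1, Tcap, Ldb3 and Ttn, with ranges over the libraries from 147-fold for Ldb3 to 748-fold for Myoz1.

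Calcium-handling genes had ranges from 261-fold to 936-fold. Pvalb, the calcium buffer parvalbumin of fast fibres, had 14.9, 227 and 4039 scaled CPM in AdIGF1RKO, against 576, 37.3 and 13941 in Flox. Atp2a1, the calcium pump of fast sarcoplasmic reticulum, had 16.5, 125 and 2419 in AdIGF1RKO, against 422, 38.8 and 7554 in Flox. Both were highest in the libraries numbered 3. Ryr1, the calcium release channel, had 0.506, 3.51 and 59.1 scaled CPM in AdIGF1RKO and 10.5, 1.25 and 198 in Flox. Casq1 (calsequestrin), Trdn (triadin) and Cacna1s (the voltage sensor) kept the same order of libraries.

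Among the energy-supply genes, Ckm, muscle creatine kinase, had 31.2, 204 and 4123 scaled CPM in AdIGF1RKO, against 694, 65.1 and 13603 in Flox. Ckmt2, its mitochondrial counterpart, had 0.454, 11.9 and 124 in AdIGF1RKO, against 44.0, 4.40 and 348 in Flox. AdIGF1RKO 1 had only 35 reads of Ckmt2. Mb, myoglobin, had 14.4, 38.1 and 206 scaled CPM in AdIGF1RKO, against 135, 33.4 and 187 in Flox, so that AdIGF1RKO 3 exceeded Flox 3 for this gene. It was the least variable of the energy genes, with a range of 14.3-fold. The glycolytic and glycogenolytic genes Eno3, Pgam2 and Pygm ranged from 140-fold to 333-fold, and Cox6a2, the muscle subunit of cytochrome c oxidase, ranged 344-fold.

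No muscle gene passed a test between the groups. Of the 33 genes, 0 passed limma's test at an adjusted p under 0.05, as did 0% of the 12993 genes tested, and 0 had an unadjusted p under 0.05, against 2.96% of all genes. The groups overlapped for all 33 genes, while 8.27% of all tested genes had groups that did not overlap. On the recovered reads, edgeR's quasi-likelihood test called 0 of the 33 at an adjusted p under 0.05 (0% of all genes) and 0 at an unadjusted one (2.91% of all genes). DESeq2 called 0 of the 26 for which it gave a p, at an adjusted p under 0.05 (0.177% of all genes) or an unadjusted one (3.8% of all genes). It gave none for the other 7, Pvalb, Myh4, Tnnt3, Actn3, Pygm, Mybpc2 and Myl1. With 3 libraries a group the smallest two-sided p of an exact permutation test is 0.1. Of the 33 genes, 31 had a negative log2 difference (AdIGF1RKO minus Flox), against 55.2% of all tested genes, and the median was -1.46, against -0.02 for all. The 2 positive ones were Tnnt1, at 0.87 (standard error 0.56), and Tnnc1, at 0.42 (standard error 0.62). Standard errors reached 2.77 (Actn3), and the errors of the strongly varying genes exceeded their estimates: Acta1 had -1.66 (standard error 2.19) and Myh4 -1.36 (standard error 2.64), each with an adjusted p of 0.998 by limma.

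The direction rested on single libraries. Without Flox 3 the median of the 33 genes was 0.38 and 7 were negative (49.5% of all genes), while without AdIGF1RKO 1 it was -0.02 with 18 negative (55.3% of all genes). It was -3.12 without AdIGF1RKO 3 and -3.10 without Flox 2. Without both libraries numbered 3 it was -1.40 with 32 negative (50.8% of all genes). An unadjusted p under 0.05 in limma was reached by Mybpc1, Actn2 and Myh1 without AdIGF1RKO 3 (2.47% of all genes), by Myh1 without Flox 2 (2.95%), by Tnnt1 without Flox 3 (3.34%) and by Actn2 and Myh1 without both libraries numbered 3 (2.93%). Myh1 and Actn2 kept a negative difference without each library in turn, Myh1 between -2.55 and -1.18 and Actn2 between -1.94 and -0.59. So did Ckmt2 (-3.34 to -0.13), Cox6a2 (-3.39 to -0.17), Mb (-1.97 to -0.094) and Mybpc1 (-2.56 to -0.072), which came closer to 0. Tnnt1 kept a positive one, between 0.44 and 1.33. With the replicate number as a block, 3 of the 33 had an unadjusted p under 0.05 in limma, against 4.48% of all genes: Tnnt1 (0.87, unadjusted p = 0.00154), Actn2 (-1.13, unadjusted p = 0.0094) and Myh1 (-1.66, unadjusted p = 0.0239). None of them passed adjustment over all genes (adjusted p = 0.914 each).

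**Figure D4:**
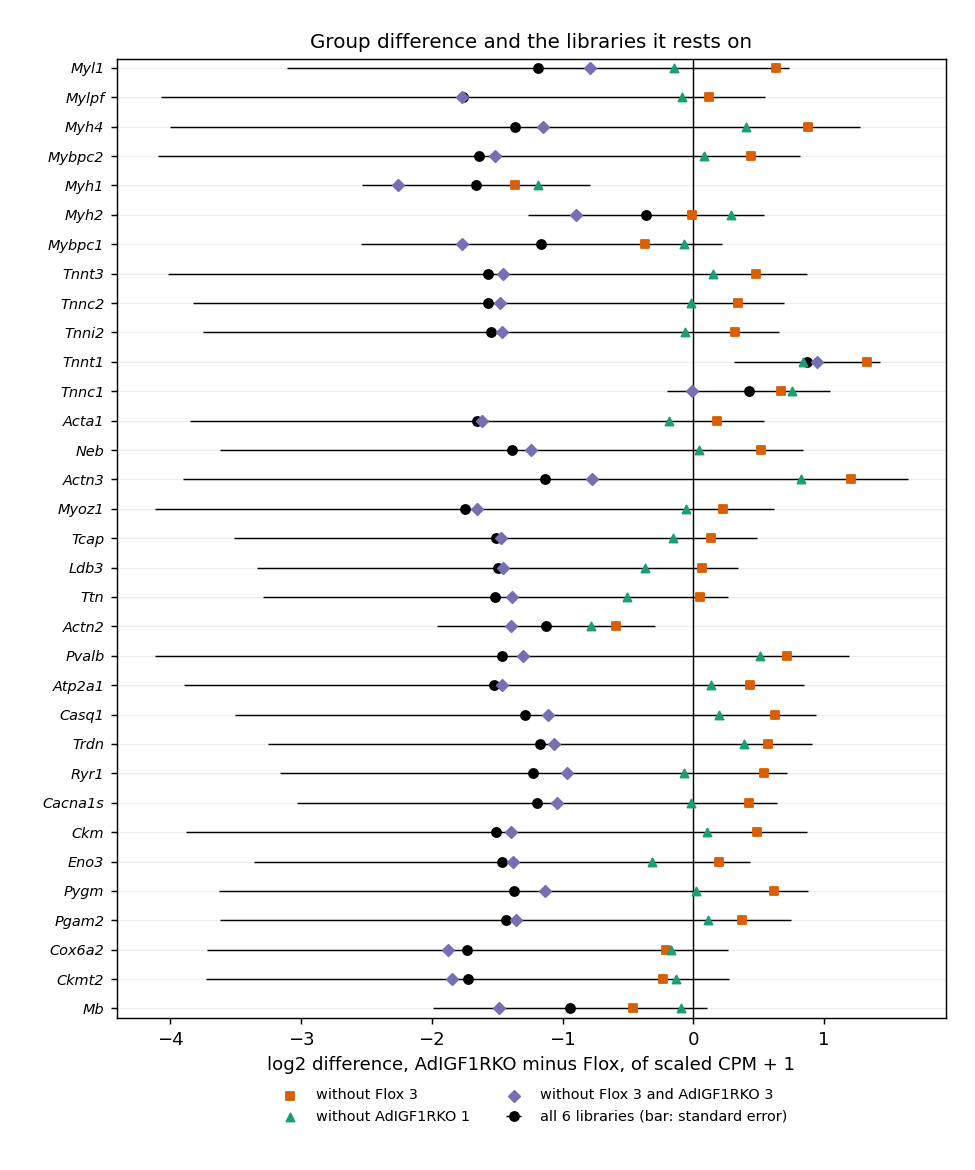
Log2 difference of scaled CPM + 1, AdIGF1RKO minus Flox, for each of the 33 genes (rows) with all 6 libraries (black, bar is 1 standard error) and without Flox 3 (orange), without AdIGF1RKO 1 (green) or without Flox 3 and AdIGF1RKO 3 (purple). Most orange points lie to the right of 0 and most black and purple points to its left. Myh1, Actn2, Mb, Mybpc1, Ckmt2, Cox6a2 and Tnnt1 stay on 1 side in all 4.

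Other muscle genes, from lists drawn up by function, also varied widely between libraries. Among 25 further sarcomere genes the median gene spanned 106-fold over the libraries, against 1.45-fold for all tested genes and 333-fold for the 33. Flox 3 and AdIGF1RKO 3 were the highest pair for 24 of the 25, and for 16.8% of all tested genes. The tropomyosin gene Tpm1 had 159, 351 and 5017 scaled CPM in AdIGF1RKO and 798, 171 and 16816 in Flox. Among 17 further triad and membrane genes, which include Hrc and Srl of the sarcoplasmic reticulum, the pair was highest for all 17, with a median span of 131-fold. Of 12 further energy genes, all 12 had this pair on top, although the span was narrower for some: the glycolytic enzyme Aldoa spanned 12.6-fold and Cox8b, also known from brown fat, 5.10-fold. In these 3 lists 0 genes had an unadjusted p under 0.05 in limma, against 2.96% of all genes, and 24 of 25, 17 of 17 and 12 of 12 had a negative log2 difference, against 55.2% of all genes. As with the 33, that direction rested on single libraries: without Flox 3 the negative ones were 5 of 25, 0 of 17 and 1 of 12 (49.5% of all genes).

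Tested genes on the further slow-fibre list and the smooth muscle list had smaller median spans. Of 7 further slow-fibre genes 5 had rows and 4 were tested, with a median span of 1.53-fold. That median does not describe all slow-fibre genes. Tnnt1, Tnnc1 and Mybpc1, slow-fibre genes among the 33, each spanned more than 10-fold. So did Myh7b of the further list, which was not tested because its mean lay below 1 scaled CPM. Atp2a2, the calcium pump of slow and cardiac muscle that most other cells also use, had 84.7, 93.6 and 79.5 scaled CPM in AdIGF1RKO, against 81.5, 81.4 and 71.3 in Flox. Among 7 smooth muscle genes the median span was 1.81-fold, and Myh11, smooth muscle myosin, had 44.5, 27.3 and 29.5 in AdIGF1RKO, against 36.9, 34.8 and 32.8 in Flox. Myogenic regulators gave a mixed picture: of 15 listed, 8 had rows. Mef2c, which fat also expresses, spanned 6.201-fold, and 4 of the 8 spanned more than 10-fold. Satellite cell genes on this list, such as Pax7 and Myf5, were not analysed here. Endothelial, macrophage, peripheral nerve and tendon lists had median spans from 1.38-fold to 2.09-fold. For tendon this rests on 3 tested genes of 6 with rows. The tendon genes with a mean below 1 scaled CPM spanned from 5.39-fold to 21.8-fold.

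**Figure D5:**
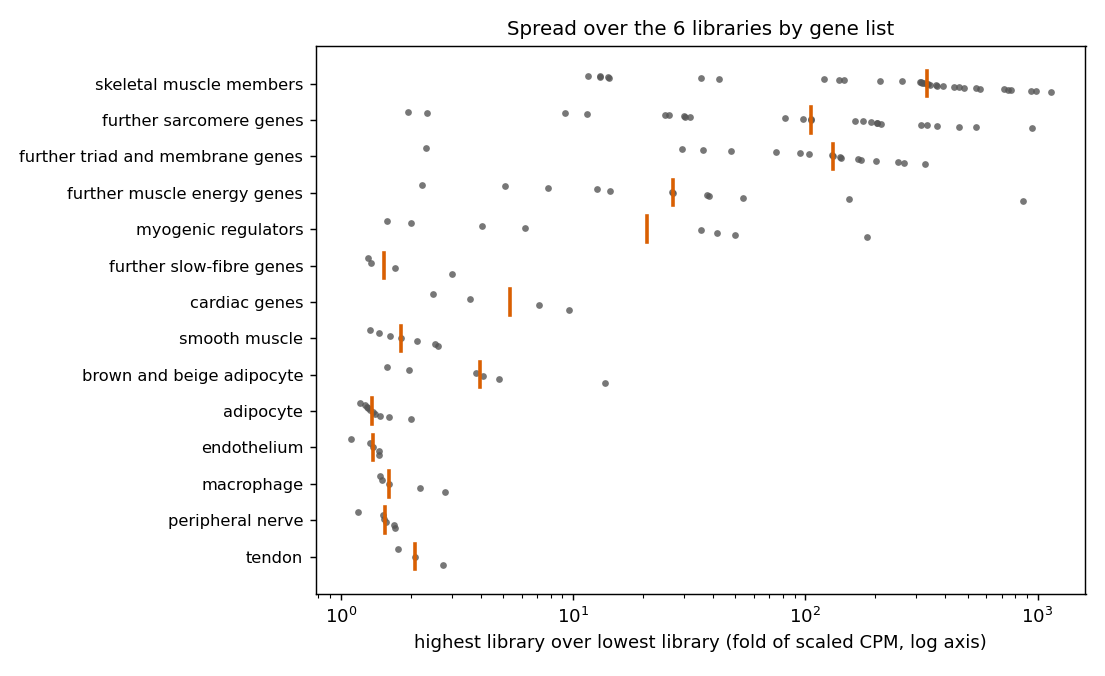
Highest over lowest library for each tested gene (points) of 14 lists (rows), on a log axis, with the median of each list as an orange bar. The 33 muscle genes and the further sarcomere and triad genes reach hundreds-fold, while adipocyte, endothelial, nerve and smooth muscle genes stay below 3-fold.

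Outside all lists, the 12 genes whose log2 levels over the 6 libraries were most like the mean of the 33 were Hjv, Ank1, Rpl3l, Trim63, Eef1a2, Myhas, Camk2a, Itgb1bp2, Trim54, Fbxo40, Asb2 and Sh3bgr. Their likeness, measured by a Pearson correlation used only to rank genes, fell in a narrow band from 0.992 to 0.999. Hjv, hemojuvelin, which is strongly expressed in skeletal muscle, had 0.622, 5.57 and 87.4 scaled CPM in AdIGF1RKO, against 18.5, 1.87 and 256 in Flox. Trim63, the muscle ubiquitin ligase MuRF1, had 0.622, 8.85 and 120 in AdIGF1RKO, against 23.7, 1.87 and 393 in Flox. Eef1a2, the translation elongation factor form of muscle and neurons, had 1.85, 10.7 and 181 in AdIGF1RKO, against 36.8, 6.73 and 613 in Flox. All 12 were highest in Flox 3 and next highest in AdIGF1RKO 3, which follows from choosing them by likeness over these same libraries.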

How the data were processed

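Polyadenylated RNA of 6 libraries, titled as mice of 2 genotypes numbered 1 to 3, was sequenced as stranded libraries, per the labels' protocols. The build was GRCm39, per the submitters' processing notes. Aligner, counter, annotation and filter: not given in the sources used here. Whether a library is 1 mouse is not stated, so p-values measure the spread between these libraries. The table that the authors deposited is named FPKM, but its signal is not divided by gene length: in each library 100% of the values were, within 0.5, a whole number of reads times 1000000000 over 1 divisor. These reads were recovered and divided by median-ratio size factors (0.728 to 1.16). The table has no 0 and its lowest entry is 1 read. Library totals limit the counting error, and low genes such as Myh2 rest on as few as 21 reads.

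Genes with a mean of at least 1 scaled CPM were tested on log2(scaled CPM + 1) with limma 3.58.1 (intensity trend, R 4.3.3), two-sided, Benjamini-Hochberg over all tested genes, threshold 0.05. edgeR 4.0.16 and DESeq2 1.42.0 on the recovered reads, other scalings, pseudocounts, filters, a replicate block and left-out libraries were alternatives. edgeR called 0 genes and DESeq2 23. The limma step was tested on simulated data with the same small spread between libraries for every gene. The muscle genes spread far more, so that run does not show how the step behaves on them. Same-numbered libraries deviated together from their group means (correlations over genes of 0.35, 0.35 and 0.83 for numbers 1, 2 and 3), but AdIGF1RKO 1 was closer to Flox 2 (0.70), and no label says what a number shares. Transcript lengths came from GENCODE M21 (longest protein-coding transcript) and upstream sequences from RefSeq, both of an earlier build than the files. The genes and lists were chosen with earlier results of these data known. Named genes were all listed muscle genes, up to 4 of each other list by mean level, the 12 most alike outside the lists, and Igf1r.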

Additional observations from a re-analysis of the deposited data

How the results depend on the processing

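The finding that 0 of the 33 muscle genes passed held under the 18 alternatives run for those tested in each: DESeq2 gave a p for 26 of them, and with a mean of at least 5 only 30 were tested, without Tnnt1, Tnnc1 and Myh2. Over all genes the count was 0 to 1 without 1 library at a time and 23 with DESeq2, and 0 under the other alternatives. The number of muscle genes with a negative difference lay between 7 and 32 without 1 library at a time, and the median between -3.12 and 0.38. With the replicate block 0 genes passed and the median of the 33 was -1.46. The block changed no call at an adjusted p. The difference in muscle share ran from -5.95 to 1.33 percentage points without 1 library at a time. The fast-to-slow log2 difference was -2.35 with 8 other fast genes added and, on the slow side, Tnnc1 alone. Mybpc1, which the text above counts as a slow-fibre gene, was left out of that version. It had 216 to 7535 reads in AdIGF1RKO libraries and 755 to 5499 in Flox libraries, and a ratio with it was not run. With means of log2 values the difference was -2.86, and the version with Myh7 was not run since that gene was not analysed here. Myh4's share of heavy chain reads differed by -4.6 to 17.5 percentage points without 1 library at a time, an alternative chosen after seeing the data, as were the counts of the other muscle lists without Flox 3. Scaling moved the median of all genes from -0.02 to -0.17 with the values as deposited and to 0.09 with equal sums. That of the 33 moved from -1.46 to -1.62 and -1.34. With quantile normalization the medians were 0.014 and -1.28. For 26 genes the sign turned when a library was left out. Without 1 library at a time the log2 differences ran from -3.46 to 0.18 for Acta1, -3.45 to 1.21 for Actn3, -3.42 to 0.43 for Atp2a1, -2.66 to 0.43 for Cacna1s, -3.02 to 0.63 for Casq1 and -3.39 to 0.49 for Ckm. They ran from -3.04 to 0.20 for Eno3, -3.02 to 0.070 for Ldb3, -3.60 to 0.44 for Mybpc2, -1.25 to 0.29 for Myh2, -3.48 to 0.88 for Myh4 and -2.67 to 0.63 for Myl1. Ranges were -3.65 to 0.12 for Mylpf, -3.63 to 0.23 for Myoz1, -3.15 to 0.52 for Neb, -3.17 to 0.38 for Pgam2, -3.53 to 0.72 for Pvalb and -3.14 to 0.62 for Pygm. Further ranges were -2.73 to 0.54 for Ryr1, -3.12 to 0.14 for Tcap, -0.25 to 0.77 for Tnnc1, -3.39 to 0.34 for Tnnc2, -3.32 to 0.32 for Tnni2 and -3.51 to 0.48 for Tnnt3. The remaining ones were -2.82 to 0.58 for Trdn and -2.95 to 0.050 for Ttn. Tnnc1 also turned without both libraries numbered 3 (-0.0061). For each the cause was the removal of Flox 3, AdIGF1RKO 1 or AdIGF1RKO 3 itself. Depth limits Myh2, Tnnt1, Tnnc1 and, in AdIGF1RKO 1, Ttn (29 reads), Ckmt2 (35 reads), Ryr1 (39 reads), Trdn (53 reads) and Cacna1s (57 reads).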

Other observations

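Outside the muscle genes and the other lists, 276 of 12839 tested genes spanned more than 10-fold over the libraries, and for 215 of them Flox 3 and AdIGF1RKO 3 were the highest pair. Cpt1b and Ucp3, which brown fat and muscle share, were highest in Flox 3. Cpt1b had 5.34, 8.13 and 24.5 scaled CPM in AdIGF1RKO, against 14.5, 5.03 and 69.2 in Flox. Ucp3 had 26.2, 21.98 and 45.8 in AdIGF1RKO, against 26.9, 28.0 and 90.2 in Flox. Cidea, a marker of brown and beige adipocytes, did not follow that order, with 48.7, 107 and 28.0 in AdIGF1RKO, against 107, 42.5 and 75.2 in Flox. Of 4 tested genes of a cardiac list, 2 had groups that did not overlap, as 8.27% of all tested genes did, and these had positive log2 differences, while Actc1 (-0.67) and Tnnt2 (-0.16) overlapped and were highest in Flox 3. Tnni3, 1 of the pair without overlap, had 6.41, 5.12 and 4.82 scaled CPM in AdIGF1RKO, against 4.58, 3.69 and 1.78 in Flox. Myl4, the other, had 12.9, 13.9 and 17.7 in AdIGF1RKO, against 7.11, 10.0 and 9.43 in Flox. Neither passed limma's test over all genes.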
